A study of Mus musculus with 12 samples.

Results

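Smn1, the mouse gene for the survival motor neuron protein, lies at chr13:100124852-100137690 on GRCm38. The genes that flank it are described here across motoneuron cultures with and without a working Smn1. They are the identifiers whose locus lies on chromosome 13 entirely between 95 and 105 Mb. The window held 121 of the 39174 identifiers. Smn1 itself, Cdk7, Ccnb1 and Map1b were left out by rule, which leaves 117 members, of which 68 were expressed highly enough to test.

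The 12 libraries are mRNA sequencing of motoneurons from FVB mice, grown in primary culture. The groups, each of 3 libraries, are Smn-/-;SMN2 with 0.5 µM R-Roscovitine, Smn+/+;SMN2 with 0.5 µM R-Roscovitine, untreated Smn-/-;SMN2 and untreated Smn+/+;SMN2. Smn-/-;SMN2 is called Smn-null and Smn+/+;SMN2 control. Both genotypes carry SMN2, the human gene that gives little full-length SMN protein. R-Roscovitine is an inhibitor of cyclin-dependent kinases. The labels do not say whether the libraries of a group came from separate embryos or cultures, so p-values measure the spread between these libraries, which may be technical. The strain in which the Smn1 null allele was made and the number of backcrosses are not stated in the labels.

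Too little SMN protein causes spinal muscular atrophy, a disease of motoneurons, and mice model it by a null Smn1 together with human SMN2. An allele made by gene targeting is inherited with the chromosome around it until recombination separates them. Genes that flank a targeted locus are therefore a usual check in a knockout, since they can carry the alleles of another strain or be touched by the targeting itself. In mouse, Smn1 sits beside Serf1 and a cluster of Naip genes, which encode sensors of bacterial proteins in the inflammasome.

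Several neighbouring members start head to head, which places the upstream sequence of both in 1 short stretch. The 4 such stretches covered by RefSeq (GRCm38.p6) are shown with the 250 bases upstream of Serf1, the tested member nearest to Smn1, and of Sv2c, a member that was lower in Smn-null libraries. They are written 5′ to 3′, on the plus strand for the 4 stretches and for Serf1 and on the minus strand, that of the gene, for Sv2c. Capitals mark matches on either strand to the GC box GGGCGG, the CCAAT box CCAAT, the TATA box TATAAA and the ETS core CCGGAA, and no matches overlap in these sequences. The RefSeq start of Serf1 lies inside the locus of the tables, so the last 22 of its 250 bases belong to that locus.
Utp15 to Ankra2, chr13:98262993-98263157: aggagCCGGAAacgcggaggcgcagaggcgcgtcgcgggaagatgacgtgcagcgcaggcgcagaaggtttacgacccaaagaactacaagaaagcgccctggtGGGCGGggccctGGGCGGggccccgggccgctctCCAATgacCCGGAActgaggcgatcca
Ptcd2 to Mrps27, chr13:99344679-99344785: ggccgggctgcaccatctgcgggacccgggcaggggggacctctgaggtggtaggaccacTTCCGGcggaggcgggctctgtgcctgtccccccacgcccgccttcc
Nln to Sgtb, chr13:104109615-104109740: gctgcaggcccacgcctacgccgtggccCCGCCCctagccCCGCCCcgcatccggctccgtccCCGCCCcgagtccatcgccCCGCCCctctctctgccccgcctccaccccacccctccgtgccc
Ppwd1 to Cenpk, chr13:104228845-104228954: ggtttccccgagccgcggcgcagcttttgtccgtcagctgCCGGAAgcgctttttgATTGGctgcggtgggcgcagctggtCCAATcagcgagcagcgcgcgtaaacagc
Serf1 upstream, chr13:100107769-100108018: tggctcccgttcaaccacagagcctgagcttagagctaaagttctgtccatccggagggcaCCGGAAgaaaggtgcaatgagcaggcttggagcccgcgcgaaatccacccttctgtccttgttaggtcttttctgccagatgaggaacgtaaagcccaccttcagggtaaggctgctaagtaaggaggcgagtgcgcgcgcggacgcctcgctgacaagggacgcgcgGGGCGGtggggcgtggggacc
Sv2c upstream, chr13:96132578-96132827: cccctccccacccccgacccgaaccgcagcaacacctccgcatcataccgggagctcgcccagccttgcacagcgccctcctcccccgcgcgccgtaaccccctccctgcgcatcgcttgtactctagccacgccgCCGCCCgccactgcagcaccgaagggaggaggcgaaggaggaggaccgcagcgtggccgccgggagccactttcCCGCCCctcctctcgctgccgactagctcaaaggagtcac

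The Utp15 to Ankra2 stretch is 165 bases long and held 2 GC boxes, 1 CCAAT box and 2 ETS cores. At that length, 29.5% of all 32851 RefSeq promoters held a GC box, 26.1% a CCAAT box and 9.72% an ETS core. Between Nln and Sgtb lie 126 bases with 4 GC boxes, a motif found in 27.0% of promoters at that length. The 110 bases between Ppwd1 and Cenpk held 2 CCAAT boxes, present in 20.2% of promoters, and 1 ETS core, present in 7.67%. Between Ptcd2 and Mrps27 there was 1 ETS core, present in 7.58% of promoters at 107 bases. Serf1 had 1 GC box and 1 ETS core, and Sv2c 2 GC boxes. Of all promoters, 32.7% held a GC box and 12.0% an ETS core in 250 bases. TATAAA was in none of the 6 sequences, against 5.83% to 12.4% of promoters. A match is a description of letters and not a site shown to be used.

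The targeted gene followed its labels in every library. Smn1 had 6.82, 5.04 and 7.35 FPKM (fragments per kilobase of transcript, scaled for sequencing depth) in R-Roscovitine Smn-null libraries and 45.1, 38.2 and 39.2 FPKM in R-Roscovitine control libraries. Untreated, it had 6.11, 7.19 and 8.58 FPKM in Smn-null and 30.9, 41.2 and 51.2 FPKM in control libraries. The groups did not overlap, and the log2 difference, Smn-null minus control and averaged over both treatments, was -2.39 ± 0.13 (SE, limma, Benjamini-Hochberg adjusted p = 2.01e-06).

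Depth, estimated from the steps between low FPKM values and so uncertain, was 19.5 to 28.7 M reads per library. For members at 1 FPKM or more the median half-width of the interval that Cufflinks gives was 7.44% to 9.76%, depending on the library. Of the 10 motoneuron markers in the files, 6 stayed under 1 FPKM in every library, Chat among them, and Mnx1 was listed at 0 throughout. Chodl, another motoneuron marker, had 3.53 to 6.13 FPKM in treated Smn-null and 7.71 to 17.2 FPKM in treated control libraries, and 3.60 to 6.23 against 7.32 to 18.1 FPKM untreated. In bulk cultures, fewer cells of a type and less RNA per cell cannot be told apart. The libraries of a genotype that share a number in the labels, 1 untreated and 1 treated, deviated from their group means together (correlation 0.237 to 0.597 over 6 pairs). SEs, intervals and calls below treat the 12 libraries as independent unless pairing is named, and the called members, the counts of calls and the intervals of the members nearest to Smn1 are also given with the libraries paired.

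By type, 74 of the 117 members are protein coding and 9 processed pseudogenes in GENCODE M21, 5 are lincRNAs, 5 antisense genes and 5 are not in that annotation. The test took genes with at least 1 FPKM in at least 3 of the 12 libraries. Of the 49 members that were not tested, 15 are small RNA genes and 34 fell below that minimum. Of all members, 20 were listed at 0 in every library, 13 of them small RNA genes and 7 others such as Zfp366, a zinc finger transcription factor, and S100z. The highest value of any untested member was 1.31 FPKM, for Fam159b. Since a gene can pass through the group where it is high, counts below concern the members that passed.

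Tested members averaged 0.609 to 233 FPKM over the 12 libraries, with a median of 9.41 FPKM, and all 14978 tested genes had a median of 10.5 FPKM. A level of 1 FPKM was reached in all libraries by 58 of the 68, and 33 averaged above 10 FPKM. The highest was Btf3, a subunit of the complex that binds nascent polypeptides, at 233 FPKM. Next came Gm10260 at 228, the processed pseudogene Gm5453 at 101 and Gm6169 at 88.5 FPKM. Btf3 had 232 ± 13.1 and 224 ± 17.7 FPKM in treated Smn-null and control libraries, and 235 ± 10.4 and 240.0 ± 27.7 FPKM in untreated Smn-null and control libraries (SD, n = 3 each). Reads of processed pseudogenes and of their parent genes can be exchanged in counting, so levels of Gm5453, Rpl31-ps13 and like loci are uncertain.

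**Figure D1:**
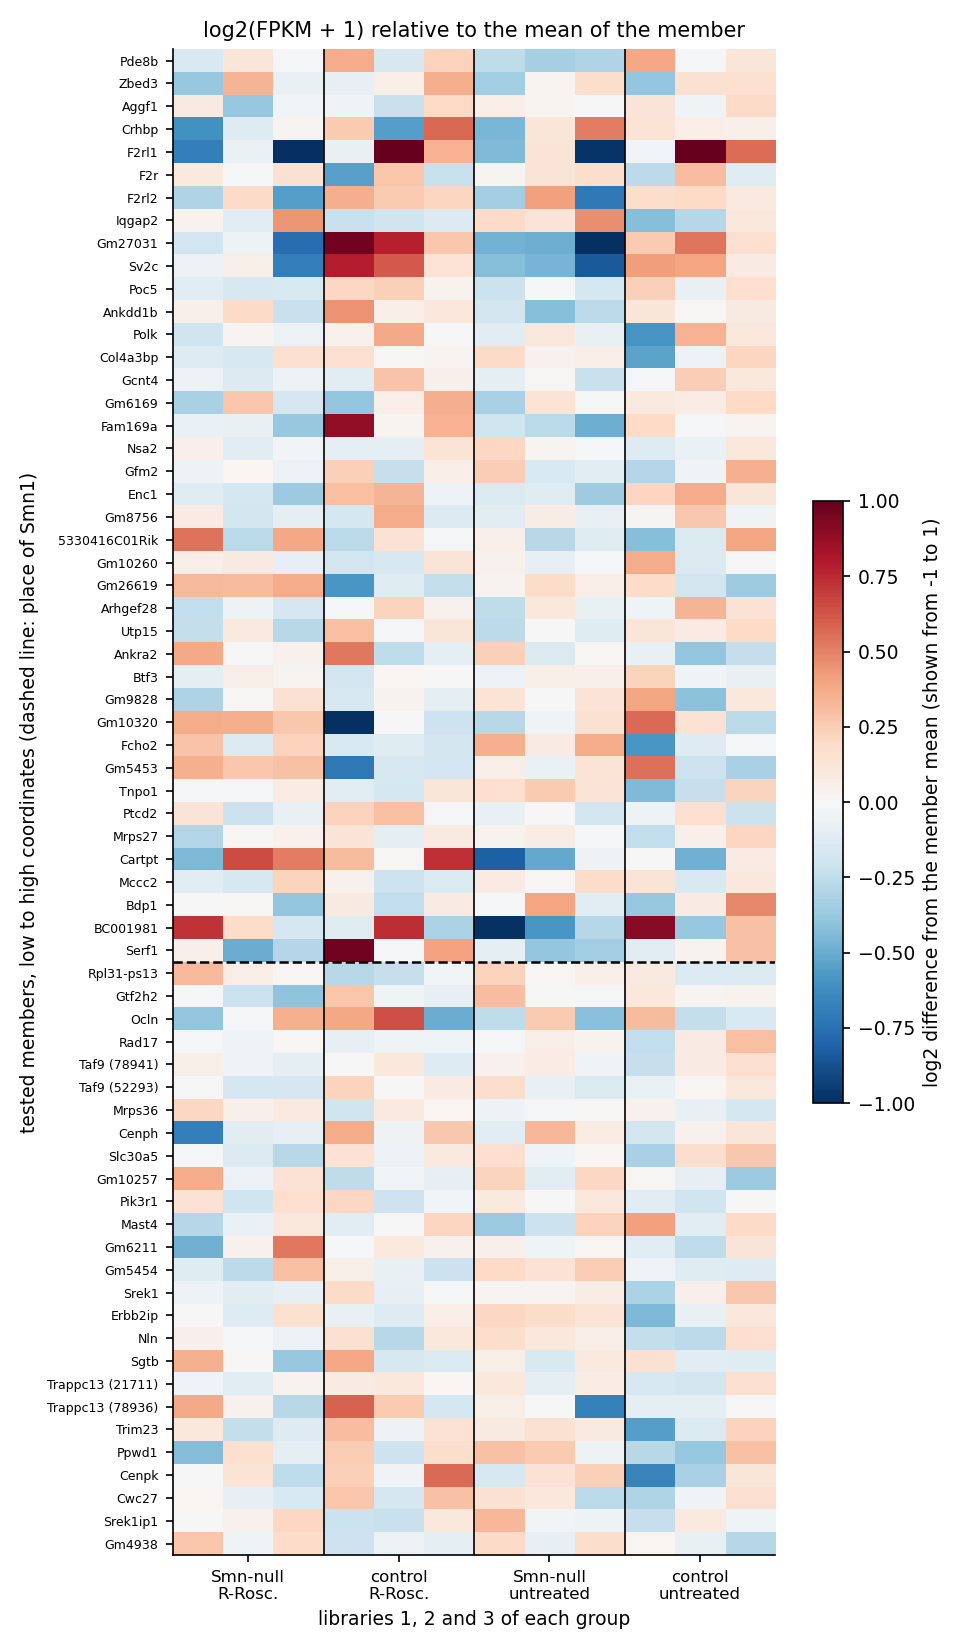
Levels of 66 of the 68 tested members in the 12 libraries, as log2(FPKM + 1) minus the mean of the member over all libraries, with members from low to high coordinates down the page and the place of Smn1 as a dashed line. Columns are libraries 1, 2 and 3 of R-Roscovitine Smn-null, R-Roscovitine control, untreated Smn-null and untreated control cultures, and the colour runs from -1 (blue) to 1 (red). F2rl1, Gm27031 and Sv2c, near the top, are bluer in Smn-null than in control columns, and most rows show no such division.

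The members next to Smn1 are of most interest for a targeted locus. Naip2 is the nearest, 6.37 kb toward higher coordinates, and Naip5, Naip6, Naip3 and Naip1 follow. None of these 5 was tested, since their highest values were 0.146 FPKM for Naip2, 0.0449 for Naip5, 0.0750 for Naip6, 0.0204 for Naip3 and 0.0499 FPKM for Naip1. They are near-identical copies between which reads can be exchanged.

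Serf1, 10.3 kb toward lower coordinates at chr13:100107997-100114571, is the nearest member that was tested. It encodes a small protein whose human counterpart speeds the aggregation of amyloid proteins, and its upstream bases are printed above. With R-Roscovitine, Serf1 had 49.5, 33.6 and 38.8 FPKM in Smn-null and 94.3, 47.4 and 63.4 FPKM in control libraries. Untreated, it had 44.6, 36.3 and 37.3 FPKM in Smn-null and 44.1, 48.9 and 58.6 FPKM in control libraries. Each treated Smn-null library but 1 lay below every treated control library, and the first treated control library stood above all others. Untreated, the ranges overlapped by 1 library of each genotype. Its log2 difference averaged over treatment was -0.49 ± 0.16 (SE, 95% interval -0.83 to -0.16, or -0.83 to -0.16 with 1 mean per pair of libraries), which did not pass the test (limma, adjusted p = 0.0832). With the replicate number as a block the adjusted p was 0.0312 and with 1 mean per pair of libraries 0.201. BC001981, an antisense transcript that lies within the Serf1 locus, averaged 1.13 FPKM and had a log2 difference of -0.36 ± 0.25 (SE, adjusted p = 0.416). The strand setting of the counting is not given in the sources used here, so reads of Serf1 and BC001981 cannot be told apart.

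Bdp1, 20.8 kb away on the same side, encodes a subunit of the factor that recruits RNA polymerase III. Treated with R-Roscovitine, Bdp1 had 12.6, 12.7 and 9.37 FPKM in Smn-null and 13.5, 10.5 and 13.5 FPKM in control libraries. Untreated, it had 12.5, 16.96 and 11.6 FPKM in Smn-null and 9.49, 13.5 and 17.99 FPKM in control libraries. The genotypes overlapped in both treatments, with a log2 difference of -0.01 ± 0.15 (SE, 95% interval -0.33 to 0.31, paired in the same way -0.37 to 0.34, adjusted p = 0.972). Mccc2, a subunit of the mitochondrial carboxylase of leucine breakdown at 109 kb, differed by 0.10 ± 0.10 (95% interval -0.12 to 0.32, paired -0.19 to 0.39). Cartpt encodes the precursor of a neuropeptide and lies 224 kb away. It differed by -0.19 ± 0.20 with a wider interval of -0.62 to 0.23, paired -0.72 to 0.34. For Mrps27, a protein of the small mitochondrial ribosomal subunit at 709 kb, the log2 difference was -0.02 ± 0.11 (95% interval -0.25 to 0.20, paired -0.29 to 0.24).

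On the other side, the nearest tested member was the processed pseudogene Rpl31-ps13, 278 kb away and within the Naip1 locus. In the R-Roscovitine cultures Rpl31-ps13 had 78.8, 66.01 and 63.8 FPKM in Smn-null and 51.7, 53.5 and 61.7 FPKM in control libraries. Untreated, it had 73.7, 63.3 and 65.8 FPKM in Smn-null and 67.1, 57.2 and 56.7 FPKM in control libraries. All treated Smn-null libraries were above all treated controls, while the untreated ranges overlapped, and the averaged log2 difference was 0.27 ± 0.09 (SE, adjusted p = 0.102, 0.289 with 1 mean per pair). Gtf2h2, a subunit of the general transcription and repair factor TFIIH at 323 kb, differed by -0.08 ± 0.11 (95% interval -0.31 to 0.15, paired -0.38 to 0.22). Ocln, the tight junction protein occludin, stood near the detection minimum at 0.717 FPKM and differed by -0.14 ± 0.21 (95% interval -0.60 to 0.31, paired -0.61 to 0.32). Rad17, which loads a checkpoint clamp at damaged DNA, had 12.1 ± 0.240 FPKM in treated Smn-null and 11.8 ± 0.223 FPKM in treated control libraries. Untreated, Rad17 had 12.5 ± 0.415 FPKM in Smn-null and 12.8 ± 2.58 FPKM in control libraries (SD, n = 3 each). Its log2 difference was 0.04 ± 0.10 with an interval of -0.17 to 0.25, paired -0.23 to 0.30. Taf9, a shared subunit of the TFIID and SAGA complexes, stands in the tables under 2 nested identifiers between which reads can be exchanged. The larger locus, with a mean of 8.69 FPKM, differed by 0.03 ± 0.10 and the smaller, at 82.2 FPKM, by -0.10 ± 0.09 (95% interval -0.28 to 0.09, paired -0.33 to 0.14).

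**Figure D2:**
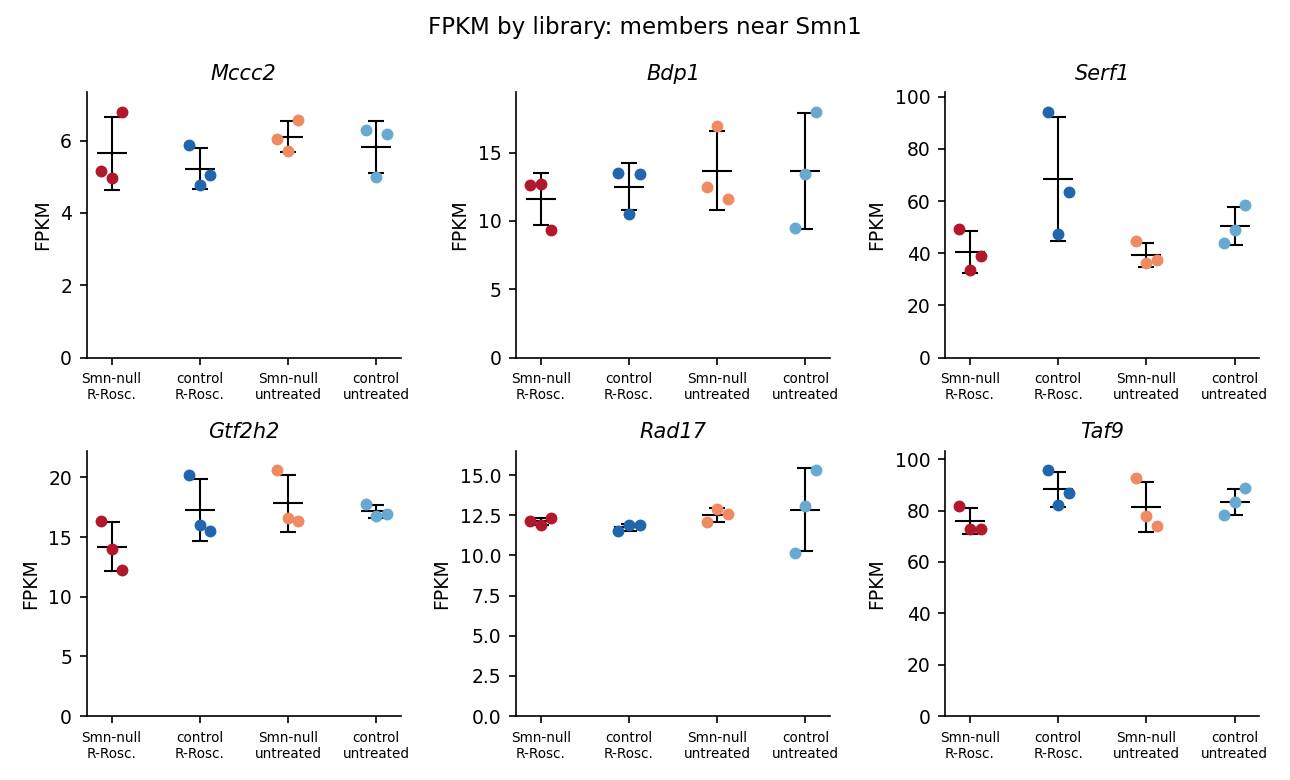
FPKM in each library of 6 members near Smn1, with 3 at lower coordinates (Mccc2, Bdp1, Serf1) and 3 at higher coordinates (Gtf2h2, Rad17, Taf9, the identifier with the higher level). Points are libraries, the horizontal mark and bars are the mean ± SD of 3 libraries, and groups run from R-Roscovitine Smn-null to untreated control. Serf1 reaches 94.3 FPKM in 1 treated control library against 33.6 to 49.5 FPKM in treated Smn-null libraries, and in every panel the genotypes overlap in at least 1 treatment.

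Averaged over both treatments, 5 of the 68 tested members (7.35%) passed the test for genotype, a call meaning an adjusted p under 0.05, against 4.83% of all tested genes. Sv2c, Enc1, F2rl1 and the unannotated locus Gm27031 fell in Smn-null libraries and the long noncoding RNA Gm26619 rose. Lower calls made up 5.88% of the members and 1.8% of all genes, and higher calls 1.47% and 3.03%. Sv2c and Gm27031 are neighbours whose levels move together, and counted as 1 locus they leave 4 calls of 67 (5.97%), 3 of them lower. Pairing the libraries ended nearly all of these calls. With pairs as a random effect only Gm27031 remained, against 64 genes (0.427%) in all, and with 1 mean per pair the count was 0 members and 1 gene (0.00668%), which is Smn1. At an unadjusted p under 0.05, the means of pairs gave 15 members (22.1%) and 15.2% of all genes. With the replicate number as a block 9 members (13.2%) were called, against 11.8% of all genes. Single libraries also moved the count. Leaving out untreated control library 2, treated control library 1 or treated Smn-null library 3 left 1 call, in each case Gm27031, against 111, 54 and 36 genes in all, and leaving out untreated Smn-null library 3 or treated Smn-null library 1 left 0, against 6 genes in all each time. Without untreated Smn-null library 1 there were 2 calls (153 genes in all) and without untreated Smn-null library 2 there were 3 (528 genes).

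**Figure D3:**
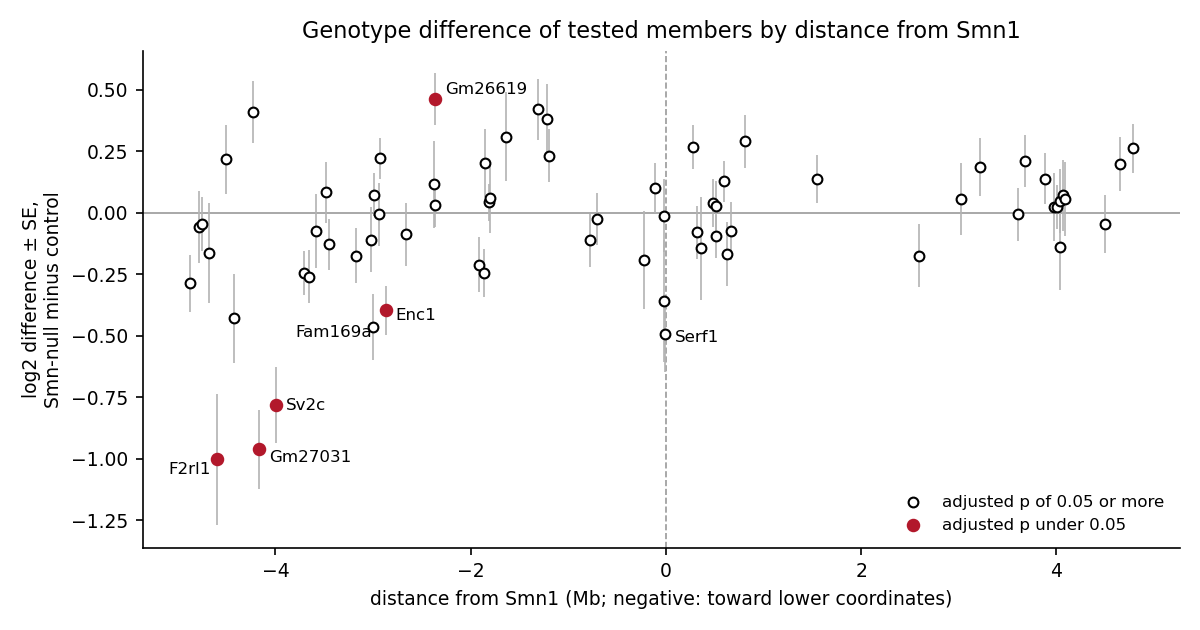
Log2 difference, Smn-null minus control averaged over treatment, of the 68 tested members (vertical axis, bars are SE) against the gap between each locus and Smn1 in Mb (horizontal axis, negative toward lower coordinates). Filled points are the 5 members with an adjusted p under 0.05, all at lower coordinates and 2.36 to 4.60 Mb away, and within 1 Mb of Smn1 the estimates run from -0.49 (Serf1) to 0.29 (Gm10257).

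Sv2c encodes a glycoprotein of synaptic vesicles and lies 3.99 Mb from Smn1 at chr13:95959443-96132577. With R-Roscovitine, Sv2c had 14.7, 16.02 and 9.09 FPKM in Smn-null and 27.2, 23.95 and 16.9 FPKM in control libraries. Untreated, it had 11.2, 10.8 and 8.11 FPKM in Smn-null and 20.9, 20.4 and 16.3 FPKM in control libraries. Every Smn-null library was below every control library of the same treatment, and library 3 was the lowest of each group. The log2 difference was -0.78 ± 0.16 (SE, 95% interval -1.12 to -0.45, limma adjusted p = 0.0226). With pairs as a random effect the adjusted p was 0.0524, and with 1 mean per pair 0.177 (95% interval -1.21 to -0.35).

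Gm27031, at chr13:95954594-95957171, is a locus of 2578 bases that starts 2271 bases past the Sv2c locus on the side of its 3′ end. Treated with R-Roscovitine, Gm27031 had 24.3, 26.99 and 16.03 FPKM in Smn-null and 55.3, 48.7 and 33.9 FPKM in control libraries. Untreated, it had 19.8, 19.6 and 13.5 FPKM in Smn-null and 33.7, 40.9 and 31.5 FPKM in control libraries. As for Sv2c, all Smn-null libraries were below all control libraries of the same treatment. The log2 difference was -0.96 ± 0.16 (SE, adjusted p = 0.0169, 0.0477 with pairs as a random effect and 0.163 with 1 mean per pair). The FPKM of Gm27031 divided by that of Sv2c was 1.61 to 2.04 in all 12 libraries. Their calls are not separate evidence.

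F2rl1 encodes a protease-activated receptor that trypsin-like proteases switch on, and lies 4.600 Mb away at chr13:95511732-95525240. In the R-Roscovitine cultures F2rl1 had 4.49, 7.43 and 3.27 FPKM in Smn-null and 7.38, 17.6 and 10.2 FPKM in control libraries. Untreated, it had 5.48, 8.65 and 3.47 FPKM in Smn-null and 7.66, 19.2 and 11.99 FPKM in control libraries. Library 2 was the highest of every group, and the genotypes overlapped in both treatments by the first control library and the second Smn-null library. Its log2 difference was -1.003 ± 0.27 (SE, adjusted p = 0.0494, and 0.227 with 1 mean per pair). With the replicate number as a block the adjusted p was 0.00192. The related receptors next to it were not called. F2r, the thrombin receptor, had 60.6 ± 3.44 and 52.5 ± 15.5 FPKM in treated Smn-null and control libraries and differed by 0.22 ± 0.14 (adjusted p = 0.377). F2rl2, a low-expressed receptor of the same family at 0.724 FPKM on average, differed by -0.43 ± 0.18 (adjusted p = 0.177). Treated, F2rl2 had 0.357, 0.916 and 0.143 FPKM in Smn-null and 1.15, 1.01 and 0.942 FPKM in control libraries, without overlap. Untreated, it had 0.317, 1.23 and 0.0176 FPKM in Smn-null and 0.896, 0.920 and 0.795 FPKM in control libraries, and the second Smn-null library was above every control.

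Enc1 encodes an actin-binding protein of the BTB-kelch family that is abundant in neurons, and lies 2.87 Mb away at chr13:97241105-97253039. With R-Roscovitine, Enc1 had 65.96, 63.2 and 55.5 FPKM in Smn-null and 88.5, 90.9 and 68.7 FPKM in control libraries. Untreated, it had 64.8, 66.03 and 55.9 FPKM in Smn-null and 83.2, 93.2 and 77.98 FPKM in control libraries. In both treatments the FPKM of all Smn-null libraries were below those of all control libraries, although after scaling the treated ranges overlapped. The log2 difference was -0.40 ± 0.10 (SE, adjusted p = 0.0416, 0.103 with pairs as a random effect and 0.211 with 1 mean per pair).

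Gm26619 is a lincRNA 2.36 Mb away at chr13:97751112-97760965. Treated with R-Roscovitine, Gm26619 had 34.4, 34.3 and 35.7 FPKM in Smn-null and 17.99, 25.01 and 23.03 FPKM in control libraries. Untreated, it had 27.98, 31.3 and 28.7 FPKM in Smn-null and 31.2, 23.9 and 21.2 FPKM in control libraries. All treated Smn-null libraries were above all treated controls, whereas the first untreated control library lay within the Smn-null range. The log2 difference was 0.46 ± 0.11 (SE, adjusted p = 0.0330, 0.127 with pairs as a random effect and 0.166 with 1 mean per pair). Within its locus, on the other strand, lies Gm10260, whose own log2 difference was 0.03 ± 0.09 (SE, adjusted p = 0.865). Gm10260 averaged 228 FPKM against 27.9 FPKM for Gm26619. With the strand setting not given, reads of Gm26619 and Gm10260 cannot be told apart, so the level of Gm26619 is uncertain.

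**Figure D4:**
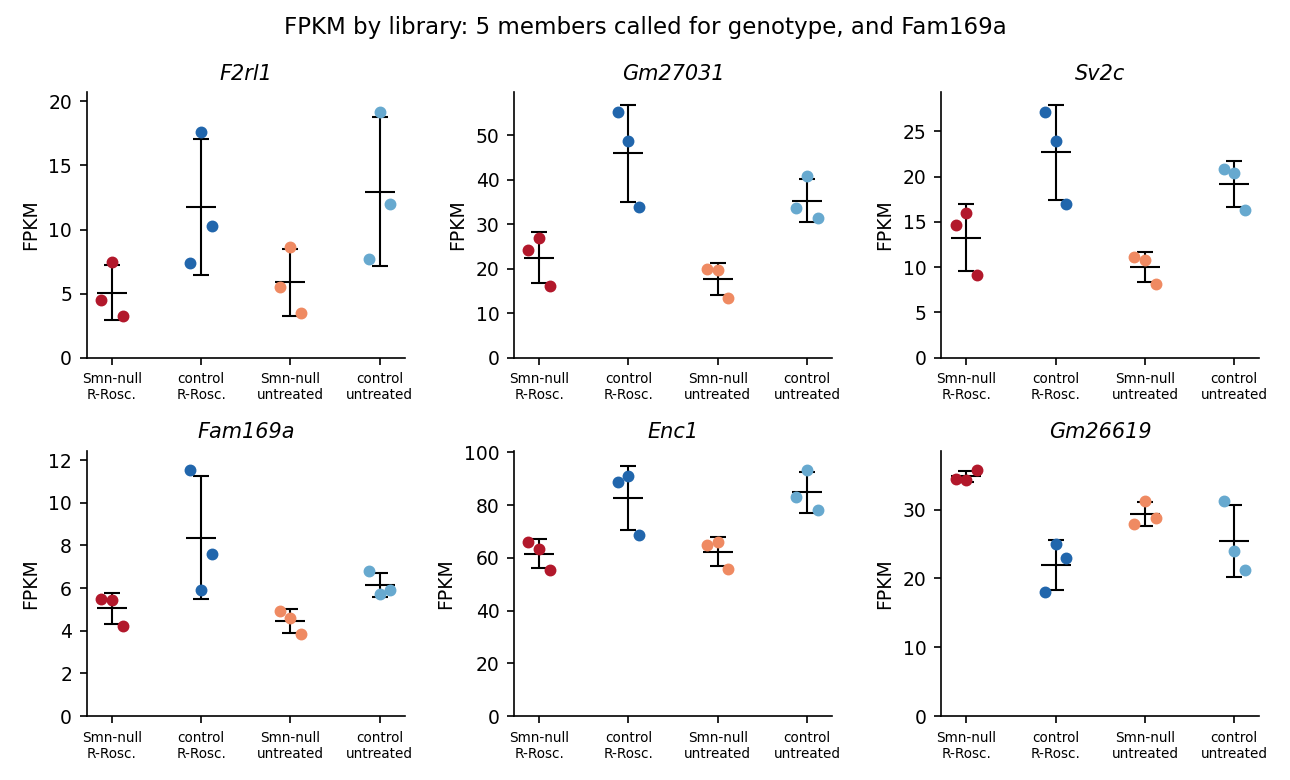
FPKM in each library of the 5 members called for genotype and of Fam169a, whose genotypes did not overlap. Points are libraries 1, 2 and 3 of each group, the horizontal mark and bars are the mean ± SD (n = 3), and groups run from R-Roscovitine Smn-null to untreated control. Gm27031 lies at 13.5 to 27.0 FPKM in Smn-null and 31.5 to 55.3 FPKM in control libraries, and Gm26619 at 34.3 to 35.7 FPKM in treated Smn-null against 18.0 to 25.01 FPKM in treated control libraries.

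Scaled levels did not overlap between genotypes within either treatment in 5 members (7.35%), against 5.25% of all tested genes. Among them, Gm27031, Sv2c and Fam169a were lower in Smn-null libraries and Iqgap2 was higher. Fam169a had 5.49, 5.46 and 4.22 FPKM in treated Smn-null and 11.5, 5.91 and 7.62 FPKM in treated control libraries, and 4.92, 4.62 and 3.84 FPKM against 6.797, 5.74 and 5.900 FPKM without treatment. Its log2 difference was -0.46 ± 0.14 (SE, adjusted p = 0.0679). Iqgap2, a scaffold protein of the IQGAP family, had 8.19, 7.33 and 11.2 FPKM in treated Smn-null and 6.69, 6.82 and 7.19 FPKM in treated control libraries, and 9.26, 8.83 and 11.4 against 5.704, 6.39 and 8.71 FPKM untreated. It differed by 0.41 ± 0.12 (SE, adjusted p = 0.0756). The count was 9 (13.2%) without untreated control library 1, against 8.99% of all genes. It was 8 (11.8%) without untreated Smn-null library 2 or treated control library 2, against 6.77% and 7.16% of all genes.

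The lower members Sv2c and Enc1 are expressed in neurons, and marker levels of the cultures also differed by genotype. Summed over the 6 neuron markers (Syn1, Rab3a, Snap25, Stmn2, Tubb3, Gap43), the level was 590 to 820 FPKM in treated Smn-null and 725 to 1113 FPKM in treated control libraries. Untreated, it was 516 to 649 FPKM in Smn-null and 653 to 1101 FPKM in control libraries. Of these 6 markers 0 had a higher estimate in Smn-null and 2 were called lower. The 10 neural progenitor markers summed to 391 to 885 FPKM in treated Smn-null and 334 to 414 FPKM in treated control libraries. They summed to 553 to 1086 FPKM in untreated Smn-null and 366 to 433 FPKM in untreated control libraries, with 6 called higher. Much of this sum was Fabp7, at 324 to 854 FPKM in untreated Smn-null and 165 to 240 FPKM in untreated control libraries. Estimates were higher for 8 of the 10 and lower for Nes (-0.05) and Hes1 (-0.03). The 10 astroglial markers came to 206 to 433 and 130 to 183 FPKM in treated Smn-null and control libraries, and to 238 to 409 and 139 to 179 FPKM untreated. Of these, 5 were called higher, and Slc1a2 had a lower estimate (-0.22, not called). With pairs as a random effect 2 of the progenitor, 2 of the astroglial and 0 of the neuron markers were called, and with 1 mean per pair none of any list. The 10 motoneuron markers summed to 10.3 to 13.2 FPKM in treated Smn-null and 13.6 to 31.3 FPKM in treated control libraries, and to 9.82 to 12.3 against 15.9 to 30.4 FPKM untreated, without overlap. Much of this sum was Chodl, at 3.53 to 6.13 FPKM in treated Smn-null and 7.71 to 17.2 FPKM in treated control libraries. Chodl was called lower (log2 difference -1.08, limma adjusted p = 0.0314) but not with either form of pairing. Of the 4 tested markers, Nefh (-0.51) and Ret (-0.24) also had lower estimates, not called, and Prph a higher one (0.02). Ret and Prph overlapped between the genotypes in both treatments. The 5 fibroblast markers summed to 11.9 to 25.9 FPKM in treated Smn-null and 15.8 to 87.2 FPKM in treated control libraries. Untreated, they summed to 12.0 to 24.1 and 13.4 to 86.4 FPKM, with 0 called. Among them, Col1a1 was highest in control library 2, treated (63.2 FPKM) and untreated (63.1 FPKM), and so was Col1a2 (21.9 and 21.7 FPKM). Dcn, Lum and Pdgfra were not. Dcn had 1.87 FPKM there treated and 1.48 FPKM untreated, the latter its lowest value in any library. Lum had 0.0193 and 0 FPKM and Pdgfra 0.269 and 0.154 FPKM, in the same order. F2rl1 was also highest in control library 2. The part of cell makeup in the differences of Sv2c, Gm27031, Enc1 and F2rl1 was not tested.

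Within a single treatment, 0 of the 68 members passed. With R-Roscovitine the background was 0.00668% of genes, Smn1 alone, and 12 members (17.6%) had an unadjusted p under 0.05 against 13% of all genes. Without treatment the background was again 0.00668%, and 10 members (14.7%) had an unadjusted p under 0.05 against 14.1%. The lowest adjusted p among members was 0.165 with R-Roscovitine, for Gm26619 (log2 difference 0.67 ± 0.15), and 0.217 without it, for Gm27031 (-0.93 ± 0.23) and Sv2c (-0.83 ± 0.22). Leaving out treated Smn-null library 2 gave 1 call with R-Roscovitine, Gm27031. With the replicate number as a block, Gm27031, Sv2c and F2rl1 were called in each treatment, 3 members (4.41%) against 1.68% of all genes with R-Roscovitine and 2.2% without. The labels do not say that a number joins libraries of different genotypes.

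The other members with the lowest p did not pass. On the lower side these were Poc5, a protein of centrioles, at -0.24 ± 0.09, Utp15, a protein of ribosomal RNA processing, at -0.24 ± 0.10, Pde8b, a cyclic AMP phosphodiesterase at the low end of the window, at -0.29 ± 0.11, and Ankdd1b at -0.26 ± 0.11 (log2 difference ± SE). On the higher side were Fcho2, which starts clathrin-coated pits, at 0.42 ± 0.12, and Gm5453 at 0.38 ± 0.14. Gm10257 differed by 0.29 ± 0.11 and Gm4938, at the high end of the window, by 0.26 ± 0.10. Tnpo1, a nuclear import receptor, differed by 0.23 ± 0.11 and Erbb2ip, the adaptor protein erbin, by 0.21 ± 0.11. Adjusted p-values of these 10 members ran from 0.0701 for Fcho2 to 0.248 for Erbb2ip. With the replicate number as a block Fcho2 had an adjusted p of 0.0467.

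Grouped by role, most members showed no call for genotype. Of all genes, 4.83% were called and 23.3% had an unadjusted p under 0.05, so counts in groups this small say little about a role. Of the 6 mitochondrial members 0 were called and 0 had an unadjusted p under 0.05, with log2 differences from -0.11 for Ptcd2 to 0.14 for Nln. Mrps36, the most abundant of them, had 47.3, 42.3 and 43.7 FPKM in treated Smn-null and 35.6, 43.9 and 41.4 FPKM in treated control libraries. Untreated, it had 39.5, 40.5 and 41.2 FPKM in Smn-null and 42.1, 38.7 and 36.03 FPKM in control libraries. The 5 identifiers listed under transcription (Btf3, Bdp1, Gtf2h2 and both of Taf9) had 0 calls and 0 with an unadjusted p under 0.05. Their differences lay between -0.10 and 0.04, the higher end being Btf3. RNA processing and ribosome biogenesis gave 0 calls of 5, and 1 member (20%), Utp15, had an unadjusted p under 0.05. Nsa2, a ribosome assembly factor and the most abundant of these, had 26.95 ± 2.32 and 25.1 ± 2.34 FPKM in untreated Smn-null and control libraries, and a log2 difference of 0.07 ± 0.09.

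DNA repair, centromere and centriole members also gave 0 calls of 5, and 1 (20%), Poc5, had an unadjusted p under 0.05. Among the 10 tested members with receptor or signalling roles 1 was called (10%), F2rl1, and 4 (40%) had an unadjusted p under 0.05, against 4.83% and 23.3% of all genes. Pik3r1, the regulatory subunit of phosphoinositide kinase, had 43.6 ± 6.07 and 42.2 ± 6.23 FPKM in treated Smn-null and control libraries and 44.4 ± 1.78 and 39.4 ± 2.89 FPKM untreated, a log2 difference of 0.14 ± 0.10. Of the 8 tested identifiers of trafficking, membrane and junction genes 1 was called (12.5%), Sv2c, and 3 (37.5%) had an unadjusted p under 0.05, against the same shares of all genes. Neither F2rl1 nor Sv2c was called with the libraries paired. The developmental transcription factors Foxd1 and Zfp366, the toll-like receptor homologue Cd180, the tricellular junction protein Marveld2 and the metalloprotease Adamts6 were below the minimum, at no more than 0.225, 0, 0.694, 0.468 and 0.503 FPKM in that order.

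The next 11 members were chosen for their known roles after their values were seen, so their signs do not describe the members as a set. Of these, 10 had an estimate below 0, against 35 of all 68 tested members (51.5%) and 51.7% of all genes. Arhgef28, a guanine nucleotide exchange factor whose human form binds the transcript of the light neurofilament, had 1.84, 2.26 and 2.005 FPKM in treated Smn-null and 2.33, 2.95 and 2.48 FPKM in treated control libraries, without overlap. Untreated, Arhgef28 had 1.82, 2.62 and 2.21 FPKM in Smn-null and 2.28, 3.28 and 2.73 FPKM in control libraries, which overlapped, and the averaged log2 difference was -0.21 ± 0.11 (SE, adjusted p = 0.276). Crhbp, the binding protein of corticotropin-releasing hormone, had 0.328, 0.849 and 1.06 FPKM in treated Smn-null and 1.43, 0.380 and 2.01 FPKM in treated control libraries and differed by -0.16 ± 0.20. Its libraries overlapped between the genotypes. Zbed3 was expressed at 50.3 FPKM and differed by -0.06 ± 0.15, and Aggf1, an angiogenic factor, by -0.05 ± 0.11.

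Slc30a5, a zinc transporter of the secretory pathway 665 kb from Smn1, differed by -0.07 ± 0.12 (95% interval -0.33 to 0.18). Mast4, a kinase of the microtubule-associated family, differed by -0.17 ± 0.13 and Gcnt4, a glycosyltransferase of mucin-type glycans, by -0.17 ± 0.11. Gfm2, a mitochondrial elongation factor, had 8.33 ± 0.302 and 8.79 ± 1.58 FPKM in treated Smn-null and control libraries and differed by -0.01 ± 0.13. Srek1, a splicing regulator, differed by -0.01 ± 0.11, Srek1ip1, its interaction partner, by 0.20 ± 0.11, and Cwc27, a cyclophilin of the spliceosome, by -0.05 ± 0.12. Srek1ip1 and Cwc27 overlap on opposite strands. None of these members was called, and their adjusted p-values ran from 0.276 for Arhgef28 to 0.983 for Gfm2.

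Members that share a start region had the same sign in some pairs and opposite signs in others. There were 10 head-to-head pairs with starts within 1000 bases, formed by 19 members, and in 6 of the pairs both log2 differences had the same sign. Across the 165 bases between Utp15 and Ankra2 the differences were -0.24 ± 0.10 and 0.20 ± 0.14. For Ptcd2 and Mrps27 they were -0.11 ± 0.11 and -0.02 ± 0.11, for Nln and Sgtb 0.14 ± 0.10 and 0.02 ± 0.14, and for Ppwd1 and Cenpk 0.07 ± 0.14 and 0.06 ± 0.15. Polk and Col4a3bp, 132 bases apart, had -0.07 ± 0.15 and 0.08 ± 0.13. None of these members was called. Another 11 pairs, with 21 members, overlap in other ways, 8 of them nested. The third member of the protease-activated receptor cluster, F2rl2, lies within the locus of Iqgap2 on the other strand, and their differences were -0.43 ± 0.18 and 0.41 ± 0.12. Fam169a contains Gm6169, which differed by -0.11 ± 0.13, and overlaps Nsa2. With the strand setting not given, reads in such overlaps cannot be told apart.

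By distance, 0 of the 17 tested members within 1 Mb of Smn1 were called, and 3 (17.6%) had an unadjusted p under 0.05, against 4.83% and 23.3% of all genes. Their median log2 difference was -0.07. From 1 to 2.5 Mb, 1 of 13 was called, Gm26619, with a median of 0.14. From 2.5 to 5 Mb, 4 of 38 were called, all lower, with a median of -0.05. All 5 calls lay at lower coordinates than Smn1, 5 of 42 (11.9%), against 0 of 26 at higher coordinates. Counting Sv2c and Gm27031 as 1 locus gives 4 of 41 (9.76%). An unadjusted p under 0.05 was found for 17 members (40.5%) on the lower side and 3 (11.5%) on the higher side, against 23.3% of all genes. With pairs as a random effect the lower side had 1 call, and with 1 mean per pair 0. The median size of the difference, sign dropped, was 0.21 on the lower side and 0.11 on the higher side, and 0.14 over all tested genes. The differences between distances and between sides were not tested.

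**Figure D5:**
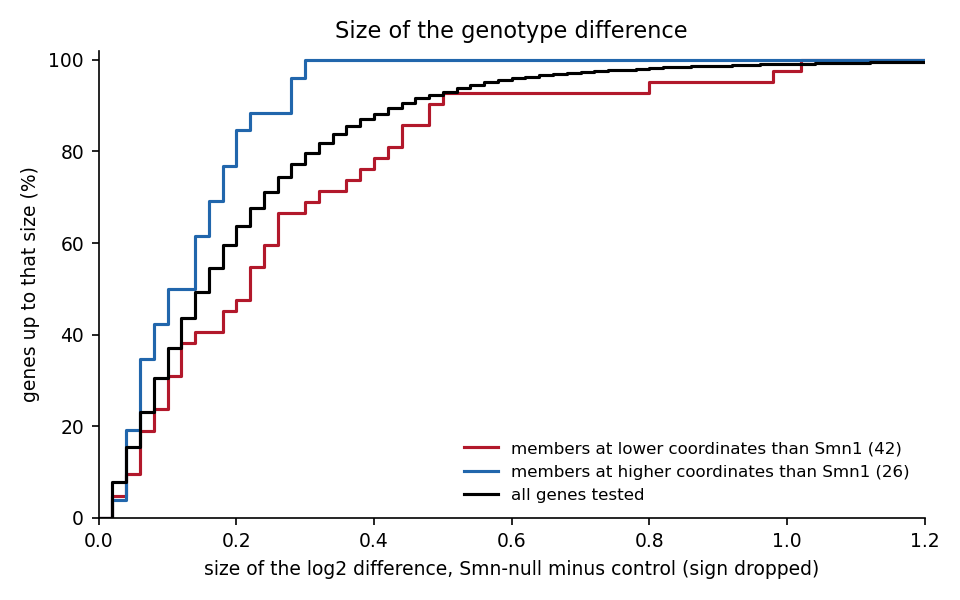
Share of genes (vertical axis, %) whose genotype difference averaged over treatment is at most the size on the horizontal axis (log2, sign dropped), for the 42 tested members at lower coordinates than Smn1, the 26 at higher coordinates and all 14978 tested genes. The curve of the higher side reaches 100% at a smaller size than the others, its largest difference being 0.29, and that of the lower side runs below the curve of all genes from 0.02 up to a size of 1, with the widest gap at 0.2 (47.6% against 63.8%).

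Over all 68 tested members the median log2 difference was -0.01, and that of all tested genes was also -0.01. The median size was 0.14 in both. A size of at least 0.5 was reached by 3 members (4.41%) and by 6.92% of all genes. In the 10 Mb of chromosome 13 below the window, 1 of 35 tested genes was called (2.86%), and in the 10 Mb above it 1 of 39 (2.56%). Chromosome 13 beyond the window and both of these flanks had 32 calls among 452 genes (7.08%) and the other chromosomes 682 among 14377 (4.74%). With pairs as a random effect these 4 regions had 0, 0, 4 and 58 calls in that order, and with 1 mean per pair 0 each. With R-Roscovitine, the median of the members was -0.09 against -0.02 of all genes, and without treatment 0.06 against -0.01.

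R-Roscovitine changed no member past the threshold in either genotype. In Smn-null cultures 0 of 68 members and 0 of all genes (0%) were called, and 2 members (2.94%) had an unadjusted p under 0.05 against 2.41% of genes. They were Cartpt and BC001981. Cartpt had 6.13, 14.3 and 12.9 FPKM in treated and 4.53, 5.83 and 8.39 FPKM in untreated Smn-null libraries, and 11.1, 8.79 and 15.1 FPKM in treated and 8.69, 5.99 and 9.31 FPKM in untreated control libraries. Its log2 difference, treated minus untreated, was 0.70 ± 0.28 in Smn-null and 0.51 ± 0.28 in control cultures (SE, limma adjusted p = 0.9989 and 0.9997). BC001981, at the detection minimum, differed by 0.87 ± 0.35 in Smn-null cultures. In control cultures 0 members and 0 genes (0%) were called, and 1 member (1.47%), Cenpk, had an unadjusted p under 0.05, against 1.26% of genes. Cenpk, a protein of the inner kinetochore, had 4.802, 3.797 and 6.31 FPKM in treated and 2.104, 2.92 and 4.35 FPKM in untreated control libraries, which overlapped, a log2 difference of 0.56 ± 0.21. Using the pairs as a block left the counts at 0 in both genotypes.

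The interaction, the treatment difference in Smn-null minus that in control cultures, also called 0 members and 0 genes (0%). An unadjusted p under 0.05 was found for 3 members (4.41%), against 1.9% of all genes. Gm10320 had 19.6, 19.6 and 18.3 FPKM in treated and 12.2, 14.6 and 16.8 FPKM in untreated Smn-null libraries, and 6.57, 15.04 and 12.8 FPKM in treated and 22.6, 16.6 and 12.3 FPKM in untreated control libraries, an interaction of 0.93 ± 0.36 on the log2 scale. The first treated control library was the lowest and the first untreated control library the highest of all 12. Cenph, another kinetochore protein, had 3.19, 5.26 and 5.35 FPKM in treated and 5.26, 7.48 and 6.09 FPKM in untreated Smn-null libraries, and 7.697, 5.51 and 7.11 FPKM in treated and 4.94, 5.94 and 6.32 FPKM in untreated control libraries. Its interaction was -0.62 ± 0.26, and that of Cenpk was -0.67 ± 0.30.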

How the data were processed

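The data are 12 mRNA sequencing libraries. Per the labels' protocols, a Nucleospin kit was used for RNA and a Lexogen kit for the libraries. Per the submitters' processing notes, FastQC 0.10.1, Trim Galore 0.4.0 and Cufflinks 2.2.1 were used with GRCm38. For the aligner, annotation and strand setting, nothing is given in the sources used here. Each table is FPKM by gene as the authors deposited it, with an interval and a status. No member had a failed status. FPKM carry no counts: low values came in steps that gave the depth, but only 35.8% to 39.2% of those values came out whole (tolerance 0.01 reads, up to 10 reads), so no count model was used. Intervals and depth cover counting error only.

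Identifiers on several lines (19) were summed. Coordinates are those of the tables, with 1 added to the start, and distance is the gap between a locus and Smn1. FPKM were scaled by median-of-ratios factors (0.977 to 1.05) and transformed to log2(scaled FPKM + 1), on which fold changes of low genes are understated. Genes with at least 1 FPKM in at least 3 of the 12 libraries, small RNA genes excepted, were fitted with limma 3.58.1 in R 4.3.3 (4 group means, trended prior, two-sided), 14978 genes in all, with Benjamini-Hochberg adjustment over all of them and a threshold of 0.05. The fit was tested on simulated data with independent libraries and differences larger than most here. That test covers neither the pairing of libraries nor small differences. Printed levels are unscaled FPKM, and overlap between groups was counted on scaled values unless FPKM are named. Promoter sequences are those of RefSeq, found for 63 members. Python 3.11.15, pandas 2.3.3 and matplotlib 3.10.9 were used for tables and plots.

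Same-numbered libraries of 1 genotype deviated together in all 6 pairs. Across genotypes, same-numbered libraries had a correlation of -0.0564 to 0.322 over 12 pairs (median 0.142). Libraries of different genotype and number had -0.305 to 0.184 over 24 pairs (median -0.0383). Numbers were taken to pair libraries within a genotype only. An effect of the number shared by the genotypes was not tested, and the replicate block allows for one. The members, functional groups and marker lists were chosen with earlier results of these data known. Named members are those called, the 10 lowest p-values in each direction, the 6 nearest tested members on each side, those without overlap, the 3 lowest p-values per direction in other comparisons, the 5 highest levels, the ends of the window and examples of each group. F2r, F2rl2, the untested Fam159b and S100z and a paragraph of members of known role were added after their values were seen. Some members that this rule names are not reported here, and the heat map leaves them out. Alternatives were other scalings, pseudocounts, filters, library weights, replicate blocks and single libraries left out. Columns of other samples numbered 0.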

Additional observations from a re-analysis of the deposited data

How the results depend on the processing

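Every comparison was repeated under other settings. For genotype averaged over treatment, where 5 members were called, the count was 3 with a minimum of 0.1 FPKM (446 genes in all), 0 with no minimum (1 gene), 11 with library weights (16.2% against 13.5% of all genes), and 0 to 7 when 1 library was left out (0.0401% to 9.1% of all genes). With the replicate number as a block it was 9, with pairs as a random effect 1, and with 1 mean per pair 0. Settings chosen after seeing the data gave 2 calls without both control libraries numbered 1 (Gm26619 and Gm5453, against 64 genes in all) and 8 without both Smn-null libraries numbered 2 (1251 genes). Among untreated libraries the count was 3 with library weights (467 genes in all) and 3 with the replicate block (330 genes). With R-Roscovitine it was 3 with the replicate block (252 genes), 0 with library weights (16 genes), and 0 to 1 when 1 library was left out (1 to 228 genes). The replicate block and pairs changed no call for treatment or the interaction, where all alternatives gave 0. The count of members without overlap ran from 4 to 9 when 1 library was left out (5.63% to 11.3% of all genes), and the median log2 difference from -0.06 to 0.02. Without scaling and with quantile normalization the 5 called members were the same genes. The cause of these shifts was not tested. Lower minimums adjust over more genes and also change the genes used for scaling and for the prior, and these were not separated.

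Gm27031 was called under 18 of 23 alternatives, Sv2c under 14, Gm26619 under 11, Enc1 and F2rl1 under 8 each, Iqgap2 under 5, Fcho2 under 4, and Fam169a, Gm5453 and Serf1 under 3 each. Among the named members whose settings were compared, signs changed in 5 identifiers, none of them called. Bdp1 had 0.00457 with quantile normalization and -0.129 to 0.0892 without single libraries, Mrps27 -0.0940 to 0.0259 without single libraries, and Ocln 0.0882 with library weights. Rad17 had -0.0414 to 0.0991 without single libraries and -0.0472 without both control libraries numbered 1. The larger Taf9 locus had -0.00273 with library weights, -0.0362 to 0.0646 without single libraries and -0.0318 without both control libraries numbered 1. With 3 libraries a group and an SE near 0.1, differences of the size typical here could not be called.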
